A study of Mus musculus with 16 samples.

Results

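The 36 genes described here are markers or working parts of macrophages, chosen by name from a list of surface receptors, Fc receptors, tissue-resident genes, granule and oxidative burst genes, leukocyte genes, transcription factors, toll-like receptors and the growth factor Csf1. All 36 were found among the 16091 genes of the deposited table, and all 36 passed the filter on low values that left 14189 genes for testing. They were measured by poly-A RNA sequencing of inguinal white adipose tissue, a fat depot under the skin of the groin, in C57BL6/J mice. Mice ate either control or high-fat food, and on each diet 4 libraries came from untreated mice and 4 from mice given the anti-PDGFcc antibody, which makes 4 groups. The antibody (AF1447) blocks PDGF-CC, a platelet-derived growth factor ligand, and was injected into the peritoneum of mice aged 6 weeks, once every 2 days over 2 weeks; each dose was 50 mg/kg, given in a volume of 100 µl. The sources used here do not give the length of the diets or say whether untreated mice had a control injection. The labels do not say that the 4 libraries of a group came from separate animals, so the p-values measure only how far these samples spread, part of which may be technical.

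Macrophages of fat tissue take up debris from dying adipocytes, buffer lipid and iron, and shape the growth of fat. Resident cells that carry Mrc1, Cd163, Timd4 and Folr2 live in lean tissue. In obesity, monocytes drawn in from blood by chemokines add macrophages that often carry Itgax (CD11c), and most of this is known from visceral fat. The receptor Csf1r with its ligand Csf1 keeps macrophages alive, and the transcription factor PU.1, encoded by Spi1, sets their gene program. Several members are shared with other cells: Ptprc, Coro1a and Laptm5 with all leukocytes, Cd180 and Fcgr2b with B cells, Itgax and Cd86 with dendritic cells, and Maf, Tlr4 and Csf1 with cells that are not leukocytes. Whole tissue was sequenced, so fewer cells of a type and less RNA per cell cannot be told apart.

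Values are the authors' normalized counts, with library totals of 24020606 to 28149991, and changes are log2 differences of value + 1 with limma's standard error (SE). Pearson's r across genes, which are not independent replicates, was 0.9499 to 0.992 between libraries of 1 group. Its lowest value was 0.9836 and 0.9788 in the antibody groups of the control and high-fat diet, and 0.9542 and 0.9499 in the untreated ones. The adipocyte marker Adipoq was abundant in every group (88156 ± 6379.8, 86403 ± 6677, 89859 ± 4143 and 92607 ± 3759 normalized counts on the control diet without and with antibody, then the high-fat diet without and with it, mean ± SD, n = 4), as the tissue label asks. Genes of skeletal muscle, which lies beside this depot, varied between libraries far more than the macrophage genes did. The sum over 14 muscle genes ran from 288 to 41449 and from 39869 to 215578 normalized counts on the control diet without and with antibody. It ran from 7229 to 647632 and from 176.6 to 10332 on the high-fat diet, with the highest value in untreated high-fat replicate 2.

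Untreated libraries differed among themselves in the level of nearly all these genes at once. In untreated control-diet replicate 1, 35 of the 36 genes had the highest value of their group, and in untreated control-diet replicate 3, 29 had the lowest value of all 16 libraries. On the high-fat diet 34 genes were lowest within their group in untreated replicate 1, while 26 were highest in untreated replicate 3, and 20 of those values were the highest of all 16 libraries. The summed level of the 36 genes was 99669.6, 64104, 48308 and 58209 normalized counts in untreated control-diet replicates 1 to 4, and 64751, 89565, 111246 and 96292 in the untreated high-fat libraries. With the antibody it was 61643, 66859, 83779.9 and 73087 on the control diet and 83544, 71961, 75921 and 73169 on the high-fat diet. The sums overlapped between every pair of groups, and the 4 high-fat libraries with antibody lay inside the range of the untreated high-fat ones. The median SD over the 36 genes was 0.45 and 0.34 on the log2 scale in the untreated control-diet and high-fat groups and 0.20 and 0.17 in the groups with antibody on these diets.

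**Figure D1:**
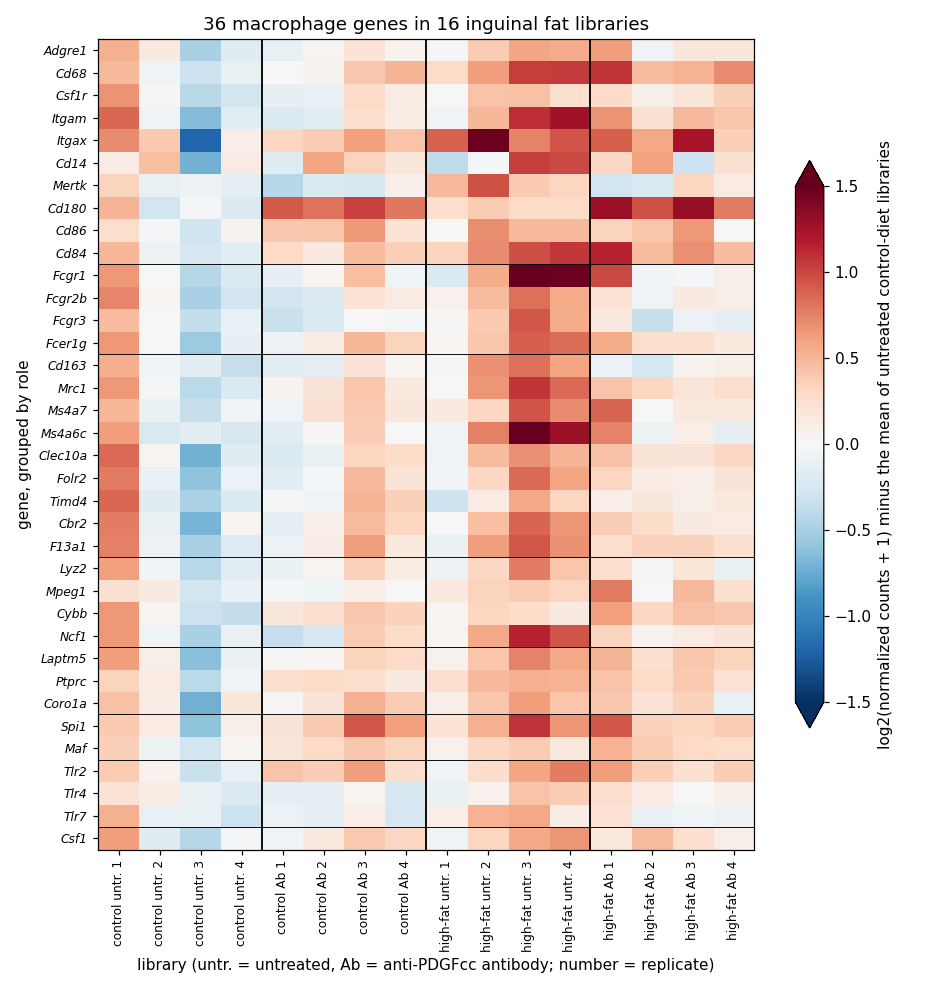
Each row is one of the 36 macrophage genes, grouped by role, and each column one of the 16 libraries; colour gives log2(normalized counts + 1) minus the gene's mean in the untreated control-diet libraries, with values past 1.5 drawn in the end colour. Most genes are red in untreated high-fat replicates 2 to 4 and in untreated control-diet replicate 1, untreated control-diet replicate 3 is blue, and Cd180 is red in all 8 antibody libraries.

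Compared per length of exon, the levels of the 36 genes spread widely. Lyz2, the lysozyme of macrophages, had a mean of 9958 normalized counts per kilobase over the 16 libraries. It was followed by the carbonyl reductase Cbr2 (1943), the folate receptor Folr2 (1891), the Fc receptor signalling chain Fcer1g (1487) and the lysosomal glycoprotein Cd68 (1464). At the other end on the same scale were Cd84 (58.69), Cd180 (45.41) and Itgax (34.81). Part of the Lyz2 reads can belong to its near-identical neighbour Lyz1, which the counting may split. Exons of 9 members overlap a gene on the opposite strand, among them Csf1r, Cd180, Ms4a6c, Folr2 and Ncf1, and those of Itgam overlap a predicted gene on the same strand. No source used here says how reads were assigned to strands, so these values are uncertain to that extent.

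The first comparison asked how the macrophage genes stood on the high-fat diet in mice without antibody. All 36 were higher on the high-fat diet than on the control diet by their means, with a median log2 change of 0.45 (range 0.18 to 1.01), beside a median of 0.02 over all 14189 genes, of which 53.1% were higher. Of these, 3 rose past an adjusted p of 0.05 by limma, namely Cd68, Cd84 and the leukocyte phosphatase Ptprc, and 33 did not pass. Across all genes 2.98% were called higher by the same rule (423 genes). Before adjustment 21 of the 36 genes had p under 0.05, as had 4296 of all genes in either direction. In 1 gene, Itgax, all 4 high-fat libraries lay above all 4 control-diet ones, beside 4.54% of all genes. The SE behind the calls comes from the spread of all 4 groups together. The median SD of the 36 genes was 0.45 and 0.34 in the untreated groups and 0.20 and 0.17 in the antibody groups. In a fit of the untreated groups alone, 0 of the 36 genes and 0.0% of all genes passed.

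Cd68 encodes a lysosomal membrane glycoprotein that stains macrophages in most tissues (ENSMUSG00000018774, GRCm38 chromosome 11, 69664213 to 69666153, minus strand). Its values were 1844, 1256, 1065 and 1225 normalized counts in untreated control-diet replicates 1 to 4 and 1622, 2044, 2715 and 2738 in the untreated high-fat libraries. Of the control-diet libraries, replicate 1 was above the lowest high-fat library, high-fat replicate 1, and the other 3 were below all 4. From 1347 ± 341.7 to 2279.8 ± 544 (SD, n = 4), the log2 change was 0.76 ± 0.20 (SE; limma adjusted p = 0.04). Cd84, a SLAM family receptor of macrophages and other leukocytes (ENSMUSG00000038147, GRCm38 chromosome 1, 171839697 to 171890718, plus strand), had 368.8, 245.5, 217.3 and 231.5 on the control diet and 327.4, 424.8, 510.4 and 545 on the high-fat diet. The groups overlapped by the same pair of libraries, and the change was 0.77 ± 0.19 (limma adjusted p = 0.0362). Ptprc, the CD45 phosphatase of all leukocytes (ENSMUSG00000026395, GRCm38 chromosome 1, 138062861 to 138175708, minus strand), had 1276, 1095, 763 and 973.5 and 1203, 1414, 1466 and 1446 on these diets, again overlapping through replicate 1 of each group. Its change of 0.45 ± 0.12 (limma adjusted p = 0.0409) was smaller than those of Cd68 and Cd84 but had the smallest SE of these 3 genes.

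The calls of these 3 genes changed with single libraries. Without untreated control-diet replicate 1, where the macrophage genes were high, 31 of the 36 genes passed the threshold (and 13.9% of all genes were called higher), and without untreated high-fat replicate 1, 15 passed (5.94%). Without untreated control-diet replicates 2, 3 or 4 none passed (0.789%, 0.247% and 0.0% of all genes), nor without untreated high-fat replicates 2, 3 or 4 (0.282%, 0.176% and 0.0%). Antibody libraries share only the estimate of spread with this comparison. Without control-diet antibody replicates 2 or 3 or high-fat antibody replicates 2 or 4, Cd84 alone passed (1.44% to 1.56% of all genes called higher). Without high-fat antibody replicate 3, Mertk passed beside the 3 genes (3.21%). With each untreated library left out in turn all 36 genes remained higher, and the median lay between 0.31 and 0.65. Leaving out an antibody library cannot change these differences between the untreated groups, so it does not bear on their direction. Once the muscle score entered as a covariate the median of the 36 genes was 0.42 with 0 calls (0.247% of all genes called higher). Without 2 doubted libraries (untreated control-diet 3 and untreated high-fat 2) it was 0.31 with 0 calls (0.0%).

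**Figure D2:**
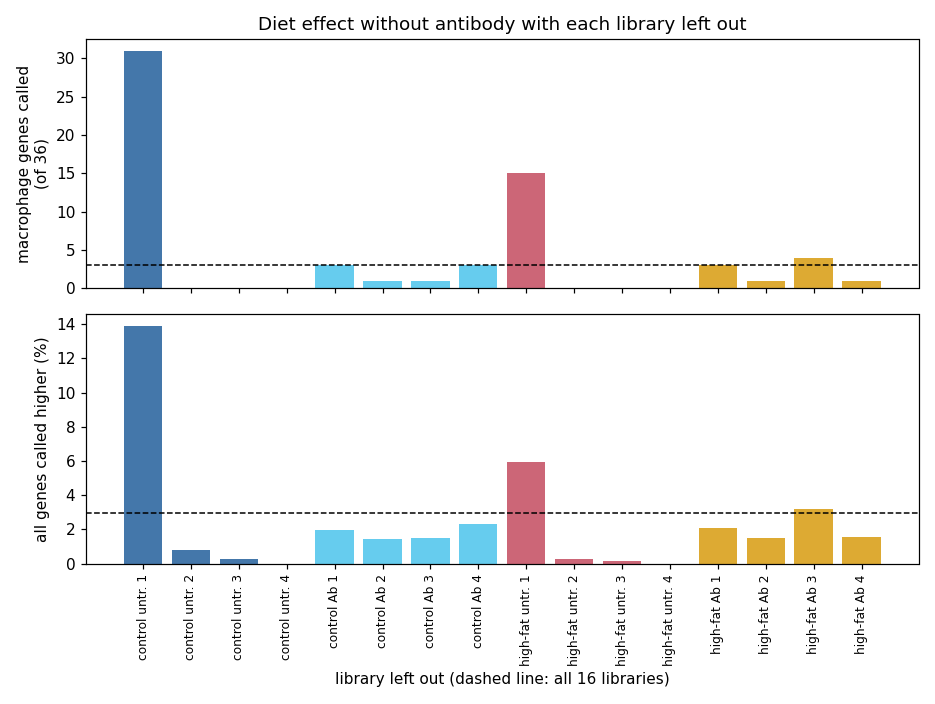
Bars give, for each of the 16 libraries left out in turn, how many of the 36 macrophage genes passed an adjusted p of 0.05 between the untreated diets (upper panel) and the percentage of all genes called higher (lower panel); dashed lines mark the fit with all libraries. Leaving out replicate 1 of the untreated control-diet or high-fat group raises both to 31 and 15 genes and to 13.9% and 5.94%, and leaving out any other untreated library takes the upper bar to 0.

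Of the promoters of the 36 genes, 27 genes with 34 promoters were found in the RefSeq table of GRCm38.p6 (250 bases before a start to 50 after). The 250 bases before the start are shown for the genes past the threshold in any comparison, chosen after their values were seen, so that a reader can see which short motifs of macrophage factors stand there. Both strands were searched for GAGGAA (core of PU.1), its longer form GAGGAAGT, TGANTCA (AP-1), TTGCNNAA (C/EBP) and the IRF motif of GAAA repeated after a gap, and capitals mark matches. GAGGAAGT holds GAGGAA, so their matches overlap. Positions count from the start base as 0, and a match describes letters, not a bound site. The windows are chr11:69666171-69666420 (minus strand) for Cd68, chr1:171839447-171839696 (plus) for Cd84, chr1:138175306-138175555 (minus, one of 2 starts) for Ptprc and chr13:102693308-102693557 (plus, one of 2 starts) for Cd180.
Cd68: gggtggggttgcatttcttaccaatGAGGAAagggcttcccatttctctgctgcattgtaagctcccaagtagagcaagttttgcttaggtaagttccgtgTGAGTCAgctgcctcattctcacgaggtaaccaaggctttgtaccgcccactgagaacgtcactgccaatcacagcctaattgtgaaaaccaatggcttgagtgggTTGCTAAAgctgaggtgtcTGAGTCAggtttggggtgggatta
Cd84: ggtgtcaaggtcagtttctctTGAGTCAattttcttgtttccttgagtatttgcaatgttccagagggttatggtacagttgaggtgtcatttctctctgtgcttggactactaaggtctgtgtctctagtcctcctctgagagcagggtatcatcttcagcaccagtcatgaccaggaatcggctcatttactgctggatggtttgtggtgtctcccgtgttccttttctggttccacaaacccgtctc
Ptprc: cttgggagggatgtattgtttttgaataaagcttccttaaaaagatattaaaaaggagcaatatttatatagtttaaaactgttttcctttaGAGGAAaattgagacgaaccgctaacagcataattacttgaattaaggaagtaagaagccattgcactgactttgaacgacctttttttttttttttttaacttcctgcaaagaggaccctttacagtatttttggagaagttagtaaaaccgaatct
Cd180: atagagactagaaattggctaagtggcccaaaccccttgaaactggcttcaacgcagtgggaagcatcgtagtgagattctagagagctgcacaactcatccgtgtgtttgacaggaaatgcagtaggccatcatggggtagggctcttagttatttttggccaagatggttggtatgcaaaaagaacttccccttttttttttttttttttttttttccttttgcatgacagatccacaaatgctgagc
In the Cd68 window stand 1 GAGGAA at -225, a pair of AP-1 matches at -149 and -24 and a C/EBP match at -43. Cd84 has an AP-1 match at -229, Ptprc a GAGGAA at -158, and the Cd180 window holds none of the motifs searched. The window of the other Ptprc start, not shown, holds none of them either. Over the full windows of 300 bases GAGGAA was in 14 of the 34 promoters of these genes and in 28.28% of all 32851 promoters, TGANTCA in 6 (7.81% of all), TTGCNNAA in 3 (10.8%) and the IRF motif in 2, those of the oxidase genes Cybb and Ncf1 (3.44%). The longer PU.1 form was in 1 promoter (3.2% of all), that of F13a1 at position 14 (chr13:37049181-37049210, minus strand), shown with the bases around it because it was the match the naming rule asked for.
F13a1: cgagtccttttGAGGAAGTacccagaggca
Starts of 1 gene can share bases, and by gene GAGGAA was in 12 of the 27 and TTGCNNAA in 2. No test was made of these counts.

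Among the other surface receptors, Adgre1 (F4/80, an adhesion receptor used to count mouse macrophages) had 2192, 1659, 1078 and 1329.7 normalized counts in untreated control-diet libraries and 1478, 1972, 2285 and 2221 in untreated high-fat ones. With the antibody it had 1395, 1558, 1743 and 1571 and 2334, 1462, 1698 and 1700.1. Control-diet replicate 1 was above 2 of the high-fat libraries, all groups overlapped, and the diet change was 0.38 ± 0.20 (limma adjusted p = 0.21). Csf1r, the receptor for Csf1 and Il34, had 9519, 6041, 4455 and 4935 on the control diet, where replicate 1 was the highest of all 16 libraries. On the high-fat diet it had 5954, 8002, 8102 and 7015, all below that library, and its diet change was 0.27 ± 0.19 (limma adjusted p = 0.332). With the antibody Csf1r stood at 5476, 5519, 7305 and 6454 and 7291, 6316, 6752 and 7644 on these diets. Itgax, the CD11c integrin of inflammatory macrophages and dendritic cells (ENSMUSG00000030789, GRCm38 chromosome 7, 128129547 to 128150657, plus strand), had the largest diet change of the 36 genes, 1.01 ± 0.32 (limma adjusted p = 0.058). It went from 174.1, 140.1, 45.96 and 112.8 to 196.9, 295.1, 179.2 and 205.5 without overlap. Control-diet replicate 3 was far below the other libraries, and without it the change was 0.61 (limma adjusted p = 0.131). The antibody groups had 133.4, 138.7, 162.6 and 143.7 and 199.3, 158.6, 252.5 and 136.8, and on the high-fat diet they overlapped the untreated libraries.

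The remaining surface receptors did not pass. Itgam, the CD11b integrin, ranged over 287.1 to 1085 normalized counts in the 16 libraries and stood at 0.70 ± 0.29 between diets (limma adjusted p = 0.126). Mertk, which binds dying cells for uptake, stood at 0.54 ± 0.17 (0.0563), Cd86, a costimulatory ligand of T cells, at 0.42 ± 0.17 (0.11), and Cd14, the coreceptor for lipopolysaccharide, at 0.41 ± 0.32 (0.406). All 4 Fc receptor genes, which bind immunoglobulin or carry its signal, were higher by their means and 0 of 4 passed. They were the high-affinity receptor Fcgr1 (0.92 ± 0.38), the inhibitory Fcgr2b (0.48 ± 0.22), the activating Fcgr3 (0.47 ± 0.19) and the chain Fcer1g (0.54 ± 0.23), with adjusted p of 0.105 to 0.147. Fcgr1 ran from 183 to 908.2 normalized counts, with its highest values in untreated high-fat replicates 3 and 4.

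Of 9 tissue-resident genes 9 were higher on the high-fat diet (median 0.52) and 0 passed. Cd163, the haemoglobin scavenger receptor (ENSMUSG00000008845, GRCm38 chromosome 6, 124304656 to 124330527, plus strand), had 6591, 4379, 4049 and 3538 normalized counts on the control diet and 4464, 7237, 7969 and 6802 on the high-fat diet. High-fat replicates 2 to 4 lay above all control-diet libraries and high-fat replicate 1 among them, for a change of 0.52 ± 0.19 (limma adjusted p = 0.0876). Mrc1, the mannose receptor CD206, followed the same arrangement, with 7761, 4822, 3737 and 4226 and 4902, 7785, 10398 and 8889.7, a change of 0.64 ± 0.22 (0.0735), and 5101, 5616, 6574 and 5469.8 and 6659, 6151, 5582 and 5936 with the antibody on the control and high-fat diets. Timd4, a receptor of long-lived resident macrophages for dying cells, had the smallest change of the 36 genes, 0.18 ± 0.24 (0.642). Its values were 482.1, 234.5, 191.2 and 230.5 without and 261.4, 256.9, 379.8 and 342.1 with antibody on the control diet. On the high-fat diet they were 214.5, 290.2, 396.8 and 333.4 and 284.5, 299.6, 282.2 and 294.6, so that untreated control-diet replicate 1 was the highest of all 16. The sugar-binding Clec10a (0.40), Folr2 (0.43), Cbr2 (0.50), the clotting factor XIII chain F13a1 (0.53) and the membrane proteins Ms4a7 (0.53) and Ms4a6c (0.89) completed the group, with adjusted p of 0.0727 to 0.288.

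Granule and oxidative burst genes had a median change of 0.33 between the untreated diets, and 0 of 4 passed. Lyz2 had 17872, 11404, 8732 and 10504 normalized counts on the control diet and 11092, 14525, 19846 and 15663 on the high-fat diet, a change of 0.36 ± 0.20 (limma adjusted p = 0.243), and 10902, 11999, 14915 and 12631 and 13953, 11482, 13315 and 10830.5 with the antibody. Each group of Lyz2 values overlapped the others. The pore-forming Mpeg1 stood at 0.30, and the oxidase subunits Cybb and Ncf1 at 0.20 and 0.68. Of the leukocyte genes beside Ptprc, the lysosomal Laptm5 was at 0.45 and the actin-binding Coro1a at 0.39. Spi1, which encodes PU.1, had 436.2, 359.3, 216.9 and 352.2 and 381.3, 477.9, 704.4 and 524.4 on these diets, overlapping through replicate 1 of each diet, at 0.62 ± 0.23 (0.0897). Maf, a transcription factor of resident macrophages, was at 0.23. The lipoprotein sensor Tlr2, the lipopolysaccharide sensor Tlr4 and the RNA sensor Tlr7 were at 0.39, 0.19 and 0.33. Csf1, the growth factor, had 3318, 1893, 1589.6 and 2100.4 on the control diet and 2042, 2685, 3184 and 3374 on the high-fat diet, with a change of 0.37 ± 0.20 (0.216) and overlap, since control-diet replicate 1 was above 3 of the high-fat libraries and control-diet replicate 4 above 1.

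**Figure D3:**
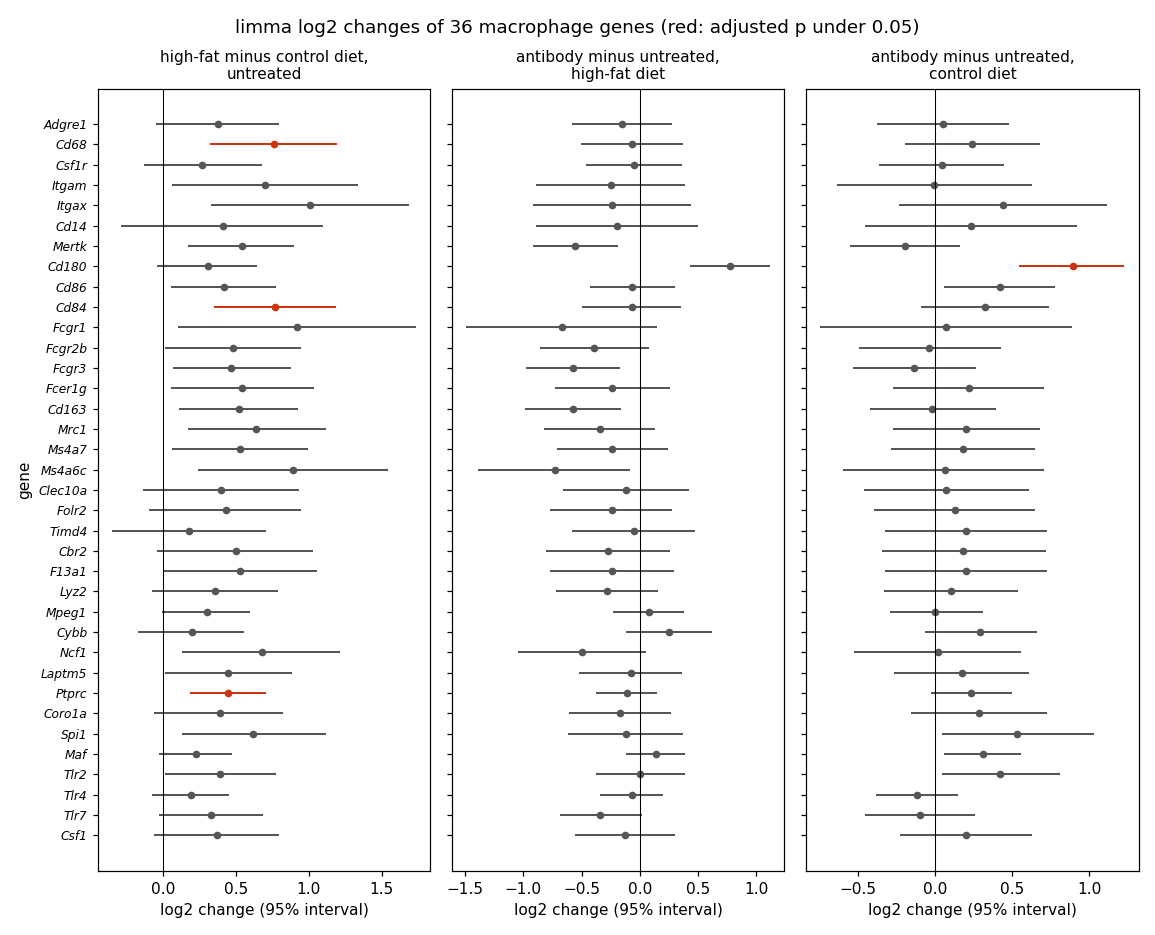
Points are limma log2 changes of the 36 macrophage genes with 95% intervals, for the diet without antibody (left), the antibody on the high-fat diet (middle) and the antibody on the control diet (right); red marks an adjusted p under 0.05. All 36 points lie above 0 on the left, 31 lie below 0 in the middle, and Cd180 stands apart on the positive side in the middle and right panels.

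Other macrophage genes from a second list, which holds none of the 36, stood in the same place. Of 36 such genes 34 were higher on the high-fat diet without antibody, with a median of 0.46, and 5 rose past the threshold. Among these were the scavenger receptors Msr1 (1.08) and Marco (1.26), the second Csf1r ligand Il34 (0.76) and the RNA sensor Tlr13 (1.27), with limma adjusted p of 0.04 to 0.0488. The first genes of that list, Lyve1, C1qa and C1qb, were at 0.96, 0.45 and 0.57 and did not pass. All 11 genes of monocytes and their recruitment were higher (median 0.84), and 2 rose, among them the chemokine Ccl7 (2.02 ± 0.48, limma adjusted p = 0.031). Ly6c2, Ccr2 and Ccl2 were at 0.16, 0.62 and 1.55 and did not pass. Summed over the 11 genes, monocyte levels were 6115 to 14985 normalized counts on the control diet and 9288 to 32554 on the high-fat diet, and the list's mean level was highest in untreated high-fat replicates 3 and 4, as was that of the 36 genes. Whether monocytes had a part in the levels of the 36 genes was not tested.

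Taken as a list, genes of lipid-associated macrophages, which form around dying adipocytes, did not move one way. Of 15 such genes 8 were higher on the high-fat diet (median 0.06), 1 rose, the tetraspanin Cd9 (0.58 ± 0.14, limma adjusted p = 0.0314), and 2 fell, the fatty acid carrier Fabp5 (-0.97 ± 0.24, 0.0336) and the protease Ctsd (-0.56 ± 0.14, 0.0375). The defining genes Trem2 and Gpnmb were at 1.07 (0.0946) and 0.58 (0.154). Spp1, Lgals3, Atp6v0d2, Ctsl and Lipa were at 0.89, 0.47, 1.24, 0.27 and -0.04. Fat cells also express several genes of this list. Fabp4, Lpl, Cd36, Ctsb and Plin2 had means of 309270.2, 257063, 98035, 68754 and 19014 normalized counts in untreated control-diet tissue. Their changes were -0.05, -0.01, 0.06, -0.05 and -0.78. Beyond Cd9, Fabp5 and Ctsd, none passed. The list median therefore does not describe lipid-associated macrophages alone. Antigen presentation genes of MHC class II were higher in 7 of 7 (median 0.28) with 0 calls, and Cd74, H2-Aa and H2-Ab1 were at 0.29 each.

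Markers of other cells were set beside these changes by list. Of 5 mast cell genes tested 3 rose with the diet, Cpa3 (0.50), Cma1 (0.62) and Tpsb2 (0.54), with Mcpt4 at 0.48 and the receptor Kit, lower by its mean, at -0.64 (limma adjusted p = 0.0822; median of the 5 genes 0.50). Of 8 proliferation genes 4 rose, Mki67 (0.78), Ccna2 (0.81), Ccnb1 (0.85) and Aurkb (0.80), with Top2a at 0.67. Of T and NK cell genes (Cd3e -0.41, Cd3d -0.14, Cd3g -0.10) 0 of 9 passed and the median was -0.10, while of dendritic cell genes (Flt3 0.32, Zbtb46 0.15, Xcr1 -0.06) 0 of 7 passed (median 0.15). Of the neutrophil genes measured, S100a8 and S100a9 were at 0.88 and 1.42, and 0 of 4 passed (median 0.76). Of B cell genes 0 of 3 tested passed (Cd79b -0.66), and 4 lay under the filter. Endothelial Egfl7 rose (0.38), with Pecam1, Cdh5 and Kdr at 0.23, 0.02 and -0.14. The adipocyte glucose transporter Slc2a4 fell (-0.77), with Adipoq, Plin1 and Cidec at 0.03, -0.26 and 0.24. Of 14 muscle genes 0 passed (Acta1 2.07, Ckm 3.63, Mylpf 2.02; median 2.55).

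**Figure D4:**
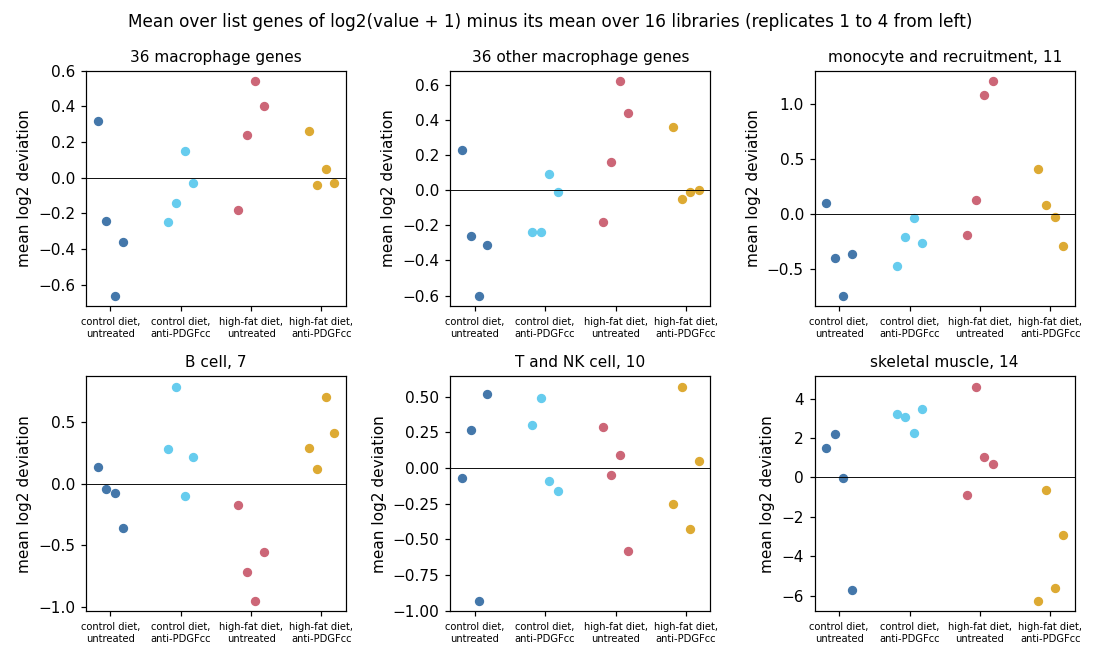
Each point is a library and gives the mean over a gene list of log2(normalized counts + 1) minus each gene's mean over the 16 libraries, for the 36 macrophage genes, 36 other macrophage genes, monocyte, B cell, T and NK cell and skeletal muscle lists (replicates 1 to 4 from left in each group). Both macrophage lists rank the untreated libraries alike, from -0.66 in control-diet replicate 3 to 0.54 in high-fat replicate 3 for the 36 genes, and the muscle list spans a far wider range.

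The next comparison asked what the antibody did to these genes on the high-fat diet. By their means 31 of the 36 were lower with the antibody and 5 higher, with a median log2 change of -0.18 beside 0.00 over all genes. That median was -0.09 with 12 genes higher without untreated high-fat replicate 3, -0.10 without untreated high-fat replicate 4, and -0.28 without untreated high-fat replicate 1. None passed the threshold by limma, and 5 had p under 0.05 before adjustment. Over all genes 0.0775% were called in either direction (11 genes). In 1 gene, Cd180, the 4 antibody libraries lay apart from the 4 untreated ones, beside 7.38% of all genes, and it was higher. The untreated high-fat libraries of this comparison are the ones that also entered the diet comparison above, so the 2 sets of changes share samples.

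Of the 5 genes with p under 0.05 before adjustment all but Cd180 were lower with the antibody. Cd163 had 4464, 7237, 7969 and 6802 normalized counts in the untreated high-fat libraries and 4256, 3756, 4686 and 4783 with the antibody. Untreated replicates 2 to 4 were above all antibody libraries and replicate 1 lay among them, for a change of -0.57 ± 0.19 (limma adjusted p = 0.19). On the control diet the antibody libraries had 3996, 4092, 5235 and 4612, within the untreated range, at -0.02 ± 0.19. Mertk had 1016, 1406, 955.1 and 906.5 without and 594.7, 620.7, 908.5 and 789.1 with antibody on the high-fat diet, overlapping by 1 pair of close values, at -0.56 ± 0.17 (0.161). Fcgr3 had 1289, 1675, 2442 and 1875 and 1419, 1008, 1198 and 1169, overlapping through antibody replicate 1 and untreated replicate 1, at -0.57 ± 0.19 (0.182). Ms4a6c had 493.3, 863.8, 1532 and 1265 and 858, 486.5, 549.1 and 472.3, overlapping through untreated replicate 1, at -0.73 ± 0.30 (0.3). Cd163 passed the threshold without untreated high-fat replicate 1, the library in which it was lowest among its group (-0.75, limma adjusted p = 0.0418).

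The members called between the diets stood close to their untreated levels under antibody on the high-fat diet, by their means. Cd68 had 2780.2, 1812, 1886 and 2149.6 normalized counts, Cd84 577.7, 362.2, 419 and 358.4 and Ptprc 1358, 1243, 1324 and 1177, and each overlapped its untreated group. Their changes were -0.07 (95% interval -0.50 to 0.36), -0.07 (-0.49 to 0.34) and -0.11 (-0.37 to 0.14). Each interval held both falls and rises and reached further below 0 than above it. All 4 Fc receptor genes were lower by their means (median -0.48), as were all 9 tissue-resident genes (median -0.24) and the 3 leukocyte genes (median -0.11). Mrc1 stood at -0.34 ± 0.22, Itgax at -0.24 ± 0.32, Lyz2 at -0.28 ± 0.20, Adgre1 at -0.15 ± 0.20, Csf1r at -0.05 ± 0.19, Timd4 at -0.05 ± 0.24, Spi1 at -0.12 ± 0.23 and Csf1 at -0.13 ± 0.20. Besides Cd180, the higher ones were Cybb (0.25), Maf (0.14), Mpeg1 (0.08) and Tlr2 (0.00). The other macrophage list had 27 of 36 genes lower (median -0.19), the monocyte list 9 of 11 (median -0.49), and 0 genes of either passed. The summed monocyte level was 9257 to 14333 normalized counts with the antibody. All 14 muscle genes were lower with the antibody by their means (median -5.59, none past the threshold). Once the muscle score entered as a covariate, the median of the 36 genes was -0.10 with 12 higher, Cd163 stood at -0.33 (limma adjusted p = 0.739), and the part of muscle in these values was not tested further. With each library weighted by its own spread, 7 of the 36 genes passed, among them Cd163, Mertk and Fcgr3, but so did 9.37% of all genes.

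On the control diet the antibody raised 1 of the 36 genes past the threshold, Cd180, and 35 did not pass, beside 0.0987% of all genes called (14 genes). By their means 29 genes were higher with the antibody and 7 lower, with a median of 0.18 beside -0.01 over all genes. Cd180 was also the only one of the 36 whose 4 antibody libraries lay apart from the 4 untreated ones, beside 6.77% of all genes. The size of this median depended on single libraries. Without untreated control-diet replicate 3, in which most of these genes were lowest, it was -0.00 with 18 genes higher, and without untreated control-diet replicate 1 it was 0.36. Without control-diet antibody replicate 3 it was 0.09, and 0.07 once the muscle score entered as a covariate. Of the genes with p under 0.05 before adjustment, Spi1 had 379.8, 433.6, 630.9 and 507.5 normalized counts with the antibody and stood at 0.53 ± 0.23 (limma adjusted p = 0.381). Cd86, Maf and Tlr2 were at 0.42, 0.31 and 0.42, with adjusted p of 0.317 to 0.356. Csf1 had 2064, 2372, 2811 and 2654 on this diet with the antibody and 2385, 2976, 2557 and 2282 on the high-fat diet, inside the untreated ranges, and Cd68, Cd84 and Ptprc had 1309, 1373, 1747 and 1885, 321, 286.7, 360.3 and 333.8 and 1199.7, 1231, 1210.0 and 1112.

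Cd180 encodes RP105, a relative of the toll-like receptors on B cells and macrophages that reaches the surface together with MD-1, the product of Ly86 (ENSMUSG00000021624, GRCm38 chromosome 13, 102693558 to 102739629, plus strand). Without antibody it had 186.4, 107.2, 129 and 112.8 normalized counts on the control diet and 156.4, 170.7, 159.7 and 160.0 on the high-fat diet. With antibody it had 247.4, 230.1, 266.4 and 227.4 and 318.7, 253.5, 324.7 and 225.2. All 8 antibody libraries were above all 8 untreated ones. On the control diet Cd180 rose from 133.9 ± 36.24 to 242.8 ± 18.02 (SD, n = 4), by 0.89 ± 0.16 on the log2 scale (limma adjusted p = 0.0454). On the high-fat diet it went from 161.7 ± 6.226 to 280.5 ± 49.01, by 0.77 ± 0.16 (0.0638), which did not pass. The 4 antibody libraries lay above the 4 untreated ones on both diets, which 0.958% of all genes did in one direction or the other. The call on the control diet was close to the threshold: 20 of 26 alternative settings or left-out libraries ended it, among them each of untreated control-diet replicates 2, 3 and 4 (adjusted p = 0.154, 0.0767 and 0.0682) and each of the 4 antibody replicates of that diet (0.123, 0.115, 0.107 and 0.214). Over all 26 the change was 0.78 to 1.09 and the adjusted p 0.000447 to 0.214. Leaving out untreated high-fat replicates 3 or 4 (0.0601 and 0.0723) or high-fat antibody replicates 1, 2 or 3 (0.0674, 0.0744 and 0.0614) ended it as well.

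Other genes bear on how the Cd180 value can be read. Its exons share 182 bases with Mast4 on the opposite strand, and Mast4 was at -0.02 and -0.00 with the antibody on the control and high-fat diets. Ly86 was at 0.27 and -0.13. B cell markers were set beside it, since B cells express Cd180. Cd79b, part of the B cell receptor, was at 14.66 to 28.93 without and 33.67 to 45.63 with antibody on the high-fat diet, and at 26.3 to 41.69 and 22.83 to 51.29 on the control diet, with changes of 0.91 (adjusted p = 0.16) and 0.11 (0.918). The sum over the 7 B cell genes, mostly the heavy chain gene Ighm, was 1756 to 6967 and 2518 to 3773 on the control diet without and with antibody, and 3649.7 to 7821 and 2992 to 10712 on the high-fat diet. On the high-fat diet Cd79b was thus higher with the antibody without overlap, as Cd180 was, while its groups on the control diet and the B cell sums on both diets overlapped. The mean log2 deviation over the 7 B cell genes, in which each gene counts alike, gave another picture. On the high-fat diet it was -0.95 to -0.17 without and 0.12 to 0.71 with antibody, apart as Cd180 was. On the control diet it was -0.36 to 0.14 and -0.1 to 0.79, with overlap. Of these 7 genes, 4 lay under the filter. The part of B cells in the Cd180 values was not tested.

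**Figure D5:**
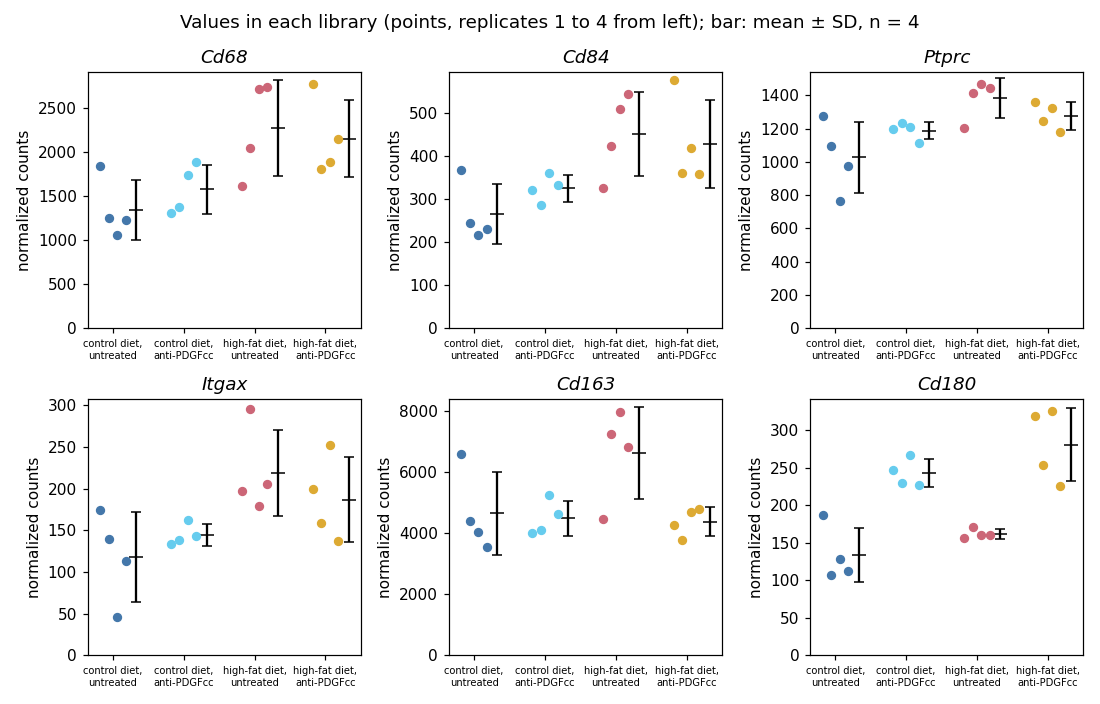
Points are normalized counts of Cd68, Cd84, Ptprc, Itgax, Cd163 and Cd180 in each library, replicates 1 to 4 from left in each group, with mean ± SD (n = 4) beside them; axes start at 0. Cd68, Cd84 and Ptprc are higher in most untreated high-fat libraries than in control-diet ones, Cd163 is high in untreated high-fat replicates 2 to 4, and Cd180 lies at 225.2 to 324.7 in antibody libraries and 107.2 to 186.4 in untreated ones.

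Set against the mean of the other 35 genes in the same library, a description of how each gene stood within the group, Cd180 was 0.99 higher under antibody on the high-fat diet and 0.74 higher on the control diet, and its libraries lay apart on both. Fcgr3 was lower on both by 0.39 and 0.31 on that scale, apart each time. On the high-fat diet Cd163, Fcgr2b and Ncf1 were lower and Maf and Cybb higher without overlap. Between the untreated diets Cd68 and Cd84 were higher and Adgre1 and Timd4 lower without overlap relative to the other 35 genes. The share of all genes that lie apart on this scale was not computed, so these separations have no background to be set against.

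With the antibody in both groups, 28 of the 36 genes were higher on the high-fat diet than on the control diet, with a median of 0.10 beside 0.02 over all genes. Leaving out 1 library moved that median between 0.04, without control-diet antibody replicate 1, and 0.18 with all 36 higher, without control-diet antibody replicate 3, and it was 0.05 without high-fat antibody replicate 1. Once the muscle score entered as a covariate it was 0.25. None passed by limma, 2 had p under 0.05 before adjustment, and 0.00705% of all genes (1 gene) were called. None of the 36 had groups that lay apart, beside 15.5% of all genes. Cd68 stood at 0.45 ± 0.20 (adjusted p = 0.256), Mpeg1 at 0.37 ± 0.14 (0.185), Cd84 at 0.38 ± 0.19 (0.315), Ptprc at 0.10 ± 0.12 (0.693), Itgax at 0.33 ± 0.32 (0.605) and Cd163 at -0.04 ± 0.19 (0.943).

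Whether the antibody acted differently on the 2 diets was tested by the interaction. For 34 of the 36 genes it was below 0, with a median of -0.37, so by their means the antibody change was lower on the high-fat diet than on the control diet. None of the 36 passed by limma (lowest adjusted p = 0.826), 0 had p under 0.05 before adjustment where 877 of all genes did, and 0.0% of all genes were called. The lowest values were in Ms4a6c (-0.79 ± 0.43), Fcgr1 (-0.74 ± 0.53), Itgax (-0.68 ± 0.45) and Spi1 (-0.66 ± 0.32). Cd163 was at -0.56 ± 0.27 and Cd180 at -0.11 ± 0.22 (95% interval -0.58 to 0.36), and for Cd180 the sign depended on the normalization. The reach of the 95% interval to each side, with no adjustment for the number of genes, was 0.61 at the median of the 36 genes. Differences below that size between diets were not detectable for a typical gene, and the adjusted threshold asks for larger ones still. Without untreated control-diet replicate 1 the median was -0.56 with 0 genes above 0, without untreated high-fat replicate 1 it was -0.52, and without untreated control-diet replicate 3 it was -0.21. It was -0.18 once the muscle score entered as a covariate. The antibody changes on the 2 diets are therefore not shown to differ for any of these genes.

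By group mean, 30 of the 36 genes were highest in untreated high-fat tissue. Cd180, Mpeg1, Maf and Cybb were highest on the high-fat diet with antibody, and Timd4 and Tlr2 on the control diet with antibody. The lowest mean was in untreated control-diet tissue for 25 genes, in control-diet tissue with antibody for 10 and in high-fat tissue with antibody for Cd163. Averaged over the 36 genes as a deviation from all libraries, the groups stood at -0.24 ± 0.41 (control diet untreated), -0.07 ± 0.17 (control diet with antibody), 0.06 ± 0.14 (high-fat with antibody) and 0.25 ± 0.31 (high-fat untreated; log2 scale, SD, n = 4), and neighbours in this order overlapped.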

How the data were processed

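RNA of 16 libraries of inguinal white fat was sequenced after poly-A selection, with stranded libraries on 2 lanes per sample, per the labels' protocols. The submitters' processing notes list STAR 2.7.0e, limma 3.42.2, Subread 1.6.2 with featureCounts, and fastp 0.20.1, and the builds mm10 and GRCm38. What each tool did, the normalization and any filter were not given in the sources used here. As deposited, the signal values are linear normalized counts that the authors made, 1 column per library, and they are not whole reads, so no count model was used and depth before normalization is unknown. The number of libraries limits precision.

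Each gene was tested with limma 3.58.1 (R 4.3.3) on log2(value + 1), which understates changes of low genes. A gene was kept where it was above 24.49, the value that stands for 1 CPM, in at least 4 libraries (14189 kept, 1902 left out). One mean per group was fitted over all 16 libraries with a trended moderated variance (12 residual and 3.07 prior degrees of freedom). The 2-sided p-values were adjusted by Benjamini-Hochberg over all genes tested, with a threshold of 0.05, for 5 contrasts. The script was tested on simulated data.

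Members and lists were chosen with earlier results of these data known. By the naming rule, values in every library are given for members past the threshold and for Adgre1, Cd68, Csf1r, Cd163, Mrc1, Itgax, Timd4, Lyz2, Spi1 and Csf1, and other lists by counts, medians, genes past the threshold and their first 3 genes. Further genes with library values (Mertk, Fcgr3, Ms4a6c) and the B cell genes beside Cd180 were picked after their values were seen. Alternatives were another pseudocount, no filter, quantile normalization, equal totals, only the groups compared, no variance trend, library weights, a replicate block, a muscle covariate, and leaving out single libraries or 2 doubted ones. Some genes of the other lists are not reported here. Gene positions come from GENCODE vM21 and promoters from RefSeq GRCm38.p6.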

Additional observations from a re-analysis of the deposited data

Results flagged for a closer look

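In 7 of 144 groups of 4 libraries, 1 library stood so far from the other 3 that its gap, as a share of the group's range, exceeded Dixon's 95% critical value, where chance flags about 1 in 20 groups. All 7 were the highest value of their group, and they came from only a pair of libraries. In high-fat antibody replicate 1, Fcgr1 was at 490.8 normalized counts (the others 239.8 to 261.9), Ms4a7 at 615 (334.8 to 371.8), Spi1 at 630.8 (415.1 to 431.7) and Tlr7 at 439.6 (350.5 to 364.1). In untreated control-diet replicate 1, Mertk was at 914.1 (the others 654.9 to 690.2), Ms4a6c at 795.5 (434.3 to 457.1) and Timd4 at 482.1 (191.2 to 234.5).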

How the results depend on the processing

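Between the untreated diets all 36 genes were higher under each alternative run. No filter, only the groups compared, no variance trend, the replicate block and leaving out antibody libraries keep the differences of group means. Those runs could not change the direction. The number past the threshold was 3 in the reported fit. It was 0 with only the groups compared, with the muscle covariate and without the 2 doubted libraries (0.0%, 0.247% and 0.0% of all genes called higher). It was 1 without the variance trend (1.95%) and 28 with library weights, which called 15.8% of all genes higher. Leaving out single libraries gave 0 to 31. For the antibody on the high-fat diet, 0 genes became 1 under quantile normalization (Cd180), 7 with library weights and 0 to 2 without single libraries (1 without untreated control-diet replicate 1, 2 without untreated high-fat replicate 1), where 0.183%, 9.37%, 0.493% and 1.91% of all genes were called. For the antibody on the control diet, the 1 call became 2 with library weights, which called 5.34% of all genes. It became 0 with the other pseudocount, quantile normalization, equal totals, only the groups compared and no trend. The muscle covariate and leaving out the 2 doubted libraries also ended it. In these runs with 0 calls, 0.0% to 0.148% of all genes were called. Without single libraries the number called was 0 to 1, and 18 to 34 of the 36 genes were higher, so the direction did not hold throughout. The interaction of Cd180 changed from -0.11 to 0.02 under quantile normalization. Equal totals moved the median of all genes between the untreated diets from 0.02 to 0.12 and that of the 36 genes from 0.45 to 0.55.

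Replicate numbers did not pair the samples throughout. Of 24 same-numbered pairs, r of the deviations from group means ran from -0.539 to 0.487, with 10 above 0.1. The pairs among the libraries numbered 2 were all above 0.1, from 0.126 to 0.487. Those of the other numbers ran from -0.539 to 0.387, and pairs with different numbers from -0.623 to 0.539. By this r, 6 of 16 libraries correlated best with their own number. With the replicate block 0 of the 36 genes passed between the untreated diets, where 0.0% of all genes were called. For the antibody 0 passed on either diet, beside 0.0141% of all genes on each. The cause of these changes in calls was not tested. Depth before normalization is unknown, so counting error could not be separated from the spread between libraries.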
